A study of Mus musculus with 6 samples.

Results

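Genomic imprinting keeps 1 parental copy of a gene silent, and many imprinted genes control how fast an embryo and a newborn grow. Described here are 10 of them, found by symbol among the 46452 genes of the expression table: H19, Igf2, Dlk1, Meg3, Peg3, Plagl1, Grb10, Mest, Cdkn1c and Ndn. All 10 symbols were in the table, each on 1 row. Whole hearts of 10-day-old mice were profiled in 6 libraries, 3 named Nat10 flox/flox, in which loxP sites flank the Nat10 gene, and 3 named Nat10-CKO, for a conditional knockout of that gene. Nat10 encodes an enzyme that acetylates cytidines in RNA. The sources used here name 3 independent biological replicates per group, but no Cre driver, deleted exons, strain or pooling of animals. Levels are in FPKM, fragments per kilobase of gene scaled by a size factor per library rather than by its total of reads. Nat10 itself went against the second label. Its mean was 4.22 ± 0.481 FPKM (SD, n = 3) in the Nat10 flox/flox libraries and 9.03 ± 1.0 FPKM in those labelled Nat10-CKO. Every direction below therefore refers to the libraries labelled Nat10-CKO, called CKO-labelled from here on, against the flox/flox libraries.

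The libraries held 31155521 to 38051266 reads assigned to genes, and a single read over 1 kb of gene equalled 0.0246 to 0.0316 FPKM. Heart muscle markers were high in every library, with 9 of them summing to 13587 FPKM or more. Replicate 1 of the flox/flox group stood apart: 10 markers of neurons and Schwann cells summed to 311 FPKM there and to 3.64 to 5.87 FPKM in the other 5 libraries. CKO-labelled replicate 1 also stood apart in its group, with Plagl1, Peg3 and Cdkn1c at 1.87 to 3.35 times the mean of the other two, and results that rest on either library are given with and without it. All hearts had the same age, so a decline after birth cannot be followed here. The values count both parental copies together and say nothing of which was used.

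In the newborn, the paternally expressed Igf2 encodes a growth factor that acts through the IGF1 and insulin receptors, and the maternally expressed Grb10 encodes an adaptor that dampens those receptors. Other imprinted genes hold back the cell cycle (Cdkn1c), encode membrane or nuclear regulators of growth (Dlk1, Peg3, Plagl1) or are long noncoding RNAs (H19, Meg3). Many of them are strongly expressed before birth and are turned down together as juvenile growth slows.

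Igf2 was lower and Grb10 higher in the CKO-labelled libraries, and the level of Mest was 5.04-fold lower. Of the 10 genes, 8 reached a mean of 1 FPKM and were tested with limma in 1 fit over all genes at that level. Igf2 passed the threshold of 0.05 on the adjusted p as lower, Grb10 passed as higher, and 6 made no call. Among all 11996 tested genes 24.4% were called higher and 16.0% lower, so 1 of 8 in each direction is not above the background. The groups did not overlap for Igf2, H19 and Mest (lower) and for Grb10 (higher). With genes of at least 20 reads on average as background, where 9 of the 10 stood, 25.9% of genes had groups apart in the lower direction and 26.8% in the higher. The median log2 fold change of the 8 was -0.37, beside 0.03 for all tested genes. That median rests in part on flox/flox replicate 1. Without that library the log2 fold change went from -0.90 to -0.16 for Ndn and from -0.66 to -0.25 for Meg3. The mean was lower for 5 of the 6 paternally expressed genes and for 3 of the 4 maternally expressed genes. Among all 11996 tested genes, 5684 had a log2 fold change below 0. The direction turned with 1 library left out for Peg3 and for Cdkn1c.

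**Figure D1:**
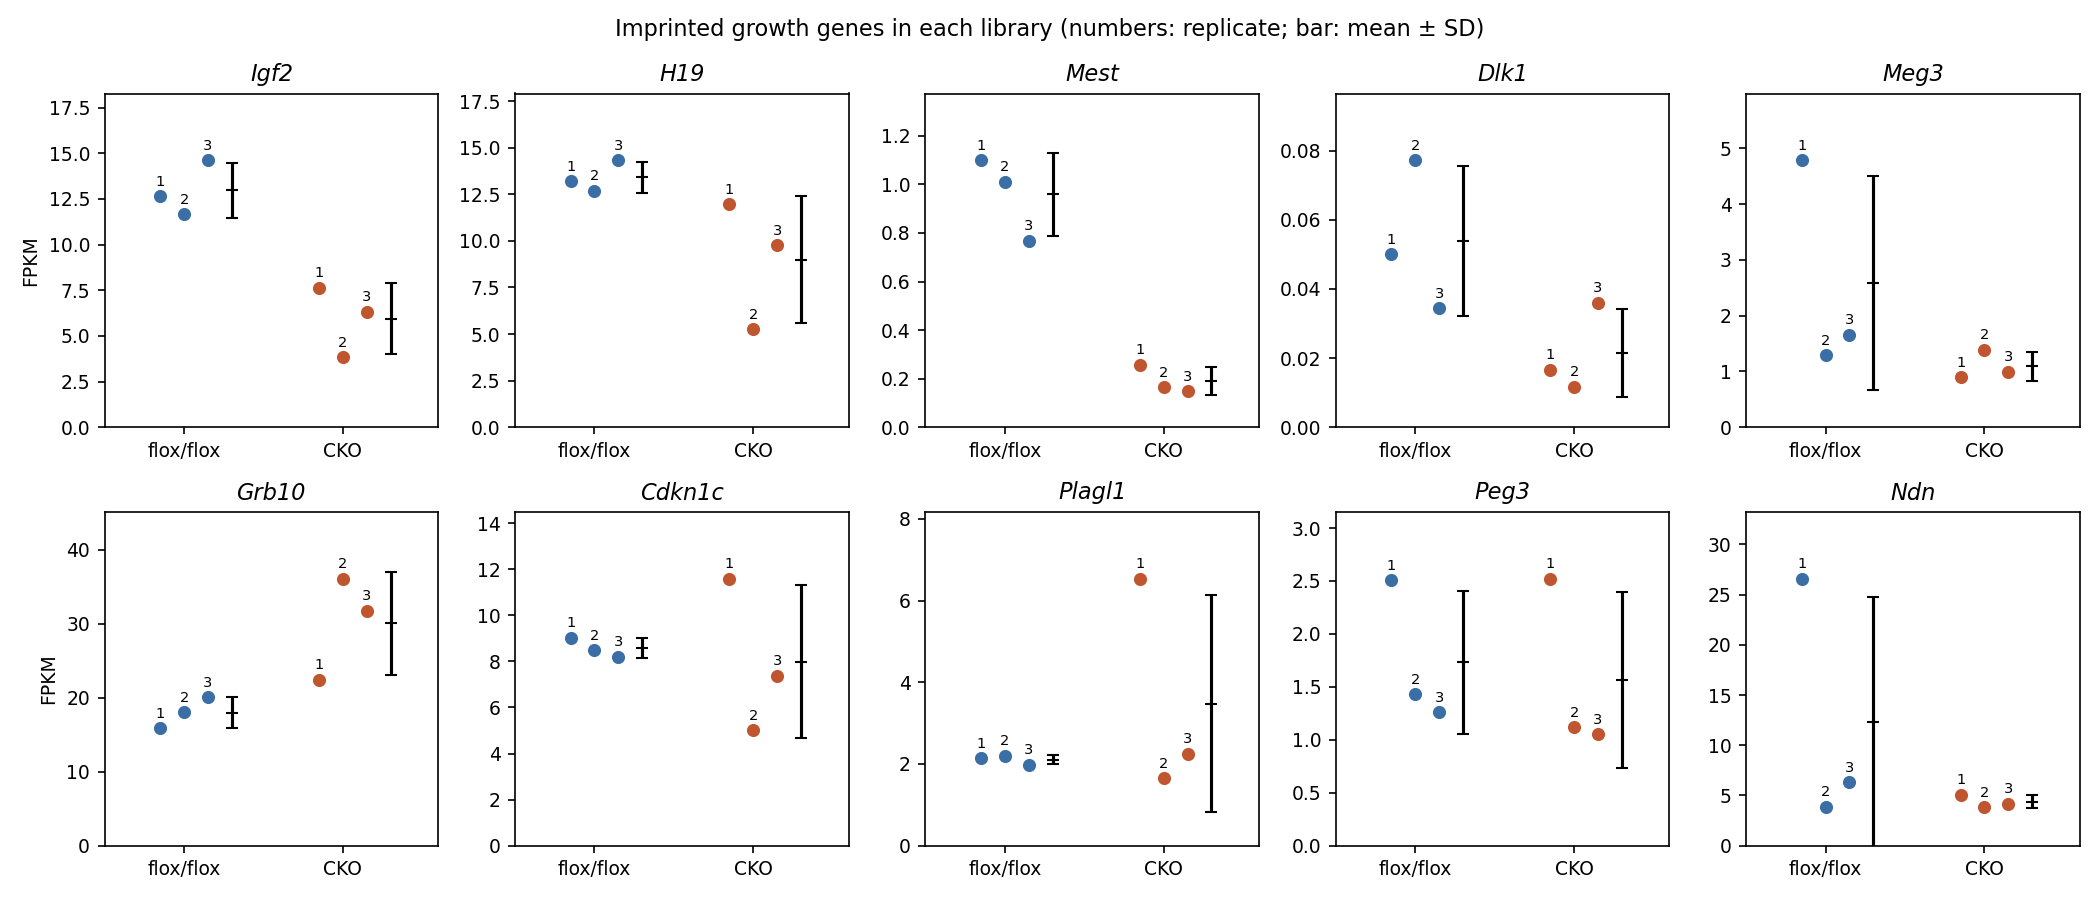
FPKM of each of the 10 imprinted genes (vertical axes, linear from 0, a separate scale per gene) in the 3 flox/flox libraries (blue) and the 3 CKO-labelled libraries (orange, CKO on the axis). Small digits are replicate numbers and the black bar is the mean ± SD, which for Ndn runs below the axis; Igf2 and Mest separate the groups downward, and single libraries set the Ndn, Meg3 and Plagl1 means.

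In the flox/flox hearts the 10 genes spanned a wide range of levels per length. Grb10 led at 18.0 ± 2.11 FPKM (SD, n = 3), followed by H19 at 13.4 ± 0.834 and Igf2 at 13.0 ± 1.5, a pair whose difference was within their spread. Ndn averaged 12.3 ± 12.5 FPKM, with 26.6 FPKM in replicate 1 and a median of 6.34 FPKM, and Cdkn1c stood at 8.57 ± 0.424 FPKM. Meg3 (2.58 ± 1.92), Plagl1 (2.11 ± 0.113) and Peg3 (1.73 ± 0.676 FPKM) overlapped. Mest was at 0.959 ± 0.172 FPKM, and Dlk1 at 0.0539 ± 0.0217 FPKM was the lowest of the 10. This order rests on the deposited gene lengths. Per length of the union of GENCODE exons the means would be 12.0 for Igf2, 10.8 for H19, 9.20 for Grb10, 7.93 for Cdkn1c and 5.37 for Ndn, and Mest at 3.79 would stand above Meg3 at 1.73, Peg3 at 1.46 and Plagl1 at 1.31.

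Igf2 (gene ID 16002, chromosome 7, 142204505 to 142220566, minus strand, GRCm39) read 12.6, 11.7 and 14.6 FPKM in the flox/flox group and 7.64, 3.82 and 6.32 FPKM in the CKO-labelled group. Every CKO-labelled library lay below every flox/flox library. The recovered reads numbered 2106 to 2962 and 757 to 1606. The means, 13.0 ± 1.5 and 5.93 ± 1.94 FPKM (SD, n = 3 per group), differed 2.19-fold, a log2 fold change of -1.05 ± 0.22 (SE, log2(FPKM + 1) scale) whose adjusted p was 0.0102 by limma. The call held with each library left out in turn, at adjusted p 0.00535 to 0.0405, but not without flox/flox replicate 3 when the filter was 20 reads on average (0.0539). An antisense gene, Igf2os, covers 44.5% of the Igf2 span and had 0.0301 to 0.159 FPKM.

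The promoters of Igf2, Mest and Grb10, the 3 genes with a call in the main or the read-filtered test, are printed for their CpG sites, the dinucleotides on which imprinted methylation is laid down. RefSeq promoter windows on GRCm38.p6, from 250 bases before to 50 after a start, existed for 8 of the 10 genes and not for H19 and Cdkn1c. Igf2 has 4 windows, and the one with the most CpG is shown (chr7:142658755-142659054, minus strand), 5′ to 3′, with each CG in capitals.
Igf2: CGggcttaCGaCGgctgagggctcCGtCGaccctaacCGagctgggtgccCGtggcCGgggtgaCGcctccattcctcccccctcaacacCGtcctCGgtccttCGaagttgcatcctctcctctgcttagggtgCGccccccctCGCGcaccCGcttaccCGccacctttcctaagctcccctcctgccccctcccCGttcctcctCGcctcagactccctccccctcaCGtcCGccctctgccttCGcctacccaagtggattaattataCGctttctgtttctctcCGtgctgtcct
It holds 24 CpG sites. Of the 32851 windows in the table, whose median is 7, 80.0% hold fewer. The other windows of Igf2 hold 7, 14 and 2, so showing the richest raises this share, as it does for Mest and Grb10 below. Methylation was not measured, and nothing here ties the printed windows to an imprint.

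H19 (gene ID 14955, chromosome 7, 142129267 to 142131883, minus strand), the maternally expressed noncoding RNA that shares enhancers with Igf2, was uneven in the CKO-labelled libraries. Its level was 13.2, 12.7 and 14.3 FPKM in the flox/flox group and 12.0, 5.25 and 9.76 FPKM in the others. The groups did not overlap, but CKO-labelled replicate 1 lay just under the lowest flox/flox library. The difference of the means (13.4 ± 0.834 and 8.99 ± 3.42 FPKM, SD, n = 3 per group) missed the threshold, with a log2 fold change of -0.59 (95% confidence interval -1.21 to 0.03) and a limma adjusted p of 0.113. Without CKO-labelled replicate 1 the adjusted p was 0.0343, and without CKO-labelled replicate 2 the log2 fold change was -0.28. With libraries weighted by their fit (array weights) the adjusted p was 0.00311, where 25.1% of genes were called lower.

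Within each library Igf2 was lower relative to H19 under the CKO label. The ratio of Igf2 to H19 was 0.958, 0.919 and 1.02 in the flox/flox group and 0.639, 0.729 and 0.648 in the others, with no overlap. A ratio inside a library does not depend on how libraries are scaled. The mean log2 ratio differed by -0.52, and an exact two-sided permutation test gave p = 0.1, the smallest that 3 against 3 libraries allow, and 0.133 after adjustment over the 4 ratios computed. Both genes were also at their lowest in the same library, CKO-labelled replicate 2.

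Across the 6 libraries, the protein-coding genes whose log2 levels ran most like Igf2 were Selenop (Pearson r 0.989), Tmem203 (0.989) and Setd1b (0.986), among 6969 genes with a mean of at least 5 FPKM. For H19 they were Adap2 (0.970), Cavin2 (0.963) and Prpf18 (0.95). These correlations describe 6 libraries that fall into 2 groups and carry no test.

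Markers of blood vessels moved in the same direction as Igf2. The counts of markers stand beside 16.0% of all tested genes called lower and 24.4% called higher. Of 9 endothelial markers 8 fell, 6 or more with 1 library left out, with summed levels of 776 to 969 FPKM in the flox/flox group and 416 to 493 FPKM in the others. Of 8 tested pericyte and smooth muscle markers 5 fell (304 to 352 and 157 to 194 FPKM), 3 with flox/flox replicate 1, 2 or 3 or CKO-labelled replicate 2 left out. All 5 erythroid markers fell (689 to 1780 and 423 to 535 FPKM), but 2 did without flox/flox replicate 1 and 1 without flox/flox replicate 2 or CKO-labelled replicate 2. Fibroblast markers had a median log2 fold change of 0.25, and 1 of 10 was called lower, Dpt, a call lost without flox/flox replicate 2 or 3. A further marker, Lum (limma adjusted p = 0.0537), was also called lower by voom, after quantile normalization and without CKO-labelled replicate 2 (0.0155). By limma 0 of them were called higher (2 at an unadjusted p under 0.05, 1 by voom), but 3 were without CKO-labelled replicate 3, Postn, Col1a1 and Col1a2, and 5 with array weights. Macrophage markers had 0 of 7 called by limma and 0 by voom, with 1 at an unadjusted p under 0.05. Without CKO-labelled replicate 1, however, 1 was called higher, Lyz2, and 1 lower, Csf1r. With array weights 1 was called higher and 2 lower. In whole hearts, fewer cells of a type and less RNA per cell cannot be told apart, and the part of these markers in the Igf2 result was not tested.

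Mest (gene ID 17294, chromosome 6, 30733505 to 30783580, plus strand) encodes a protein of the alpha/beta hydrolase family made in embryonic mesoderm. Its level was 1.10, 1.01 and 0.768 FPKM in the flox/flox group and 0.257, 0.165 and 0.149 FPKM in the CKO-labelled group. The lowest of the former was well above the highest of the latter. Reads numbered 1426, 1019 and 869 against 302, 182 and 161, so the gene is not sparse, but its mean was under the filter of 1 FPKM and the main test left it out. With a filter of 20 reads in place of 1 FPKM, chosen after the data were seen, the log2 fold change was -0.72 ± 0.09 (SE), with an adjusted p of 0.00255 by limma over 15327 genes. There 15.3% of genes were called lower. Under that filter the call held with each library left out, at adjusted p 0.00544 to 0.0145. Without any filter the adjusted p was 0.00766, where 6.63% of genes were called lower. The log2(FPKM + 1) scale compresses so low a gene: the log2 fold change was -2.35 by limma's voom on the reads.

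Read assignment at Mest is uncertain. The deposited length of 31852 bases is 3.95 times the union of its GENCODE exons, 8070 bases, and on that shorter length the means would be 3.79 and 0.751 FPKM. Copg2, a coat protein gene on the opposite strand, overlaps 71.9% of the span. Copg2 fell as well, from 6.37 ± 0.276 to 3.82 ± 0.230 FPKM (SD, n = 3 per group, limma adjusted p = 0.00269), 1.67-fold beside 5.04-fold for Mest. The sources used here do not say whether reads were assigned by strand. Of the 3 promoter windows of Mest, an overlapping pair tie for the most CpG, and the one that starts first is shown (chr6:30737800-30738099, plus strand, GRCm38.p6, CG in capitals).
Mest: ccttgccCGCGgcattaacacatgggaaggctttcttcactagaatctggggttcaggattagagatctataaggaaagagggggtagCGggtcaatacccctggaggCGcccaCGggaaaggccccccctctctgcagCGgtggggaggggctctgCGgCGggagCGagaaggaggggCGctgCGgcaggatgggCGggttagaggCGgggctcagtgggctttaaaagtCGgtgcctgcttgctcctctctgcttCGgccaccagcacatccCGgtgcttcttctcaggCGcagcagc
It holds 17 CpG sites, and 68.6% of all windows hold fewer.

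Grb10 (gene ID 14783, chromosome 11, 11880499 to 11987428, minus strand) read 15.8, 18.1 and 20.1 FPKM in the flox/flox group and 22.4, 36.1 and 31.7 FPKM in the CKO-labelled group. All 3 of the latter were higher, CKO-labelled replicate 1 by little. The means, 18.0 ± 2.11 and 30.1 ± 6.97 FPKM (SD, n = 3 per group), differed 1.67-fold, a log2 fold change of 0.69 ± 0.19 (SE) whose adjusted p by limma was 0.0269. The call was near the threshold: it was lost without flox/flox replicate 1 (adjusted p 0.0800) or 2 (0.0749), without CKO-labelled replicate 2 (0.0795) or 3 (0.0731), with no filter (0.0649) and after quantile normalization (0.0790). The ratio of Igf2 to Grb10 was 0.645 to 0.797 in the flox/flox group and 0.106 to 0.341 in the others (exact permutation p = 0.1, the smallest possible, adjusted 0.133).

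Of the 2 promoter windows of Grb10 the more CpG-rich is shown (chr11:12037371-12037670, minus strand, GRCm38.p6, CG in capitals).
Grb10: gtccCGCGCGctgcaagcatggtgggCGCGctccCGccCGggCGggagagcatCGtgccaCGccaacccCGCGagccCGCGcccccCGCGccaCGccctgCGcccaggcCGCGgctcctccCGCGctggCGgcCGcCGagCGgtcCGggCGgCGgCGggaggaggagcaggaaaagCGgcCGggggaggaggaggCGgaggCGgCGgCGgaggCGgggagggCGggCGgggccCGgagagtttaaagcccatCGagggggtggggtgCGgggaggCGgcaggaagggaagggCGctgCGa
It holds 45 CpG sites, and 98.1% of all windows hold fewer. Across the 15 windows of the 8 genes, the PLAGL1-type motif GGGGCCCC, which reads the same on both strands, occurred in 1, that of Peg3, beside 1.08% of all windows. The cAMP response element TGACGTCA, also its own reverse complement, occurred in 2, of Meg3 and Peg3, beside 1.79% of all windows.

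**Figure D2:**
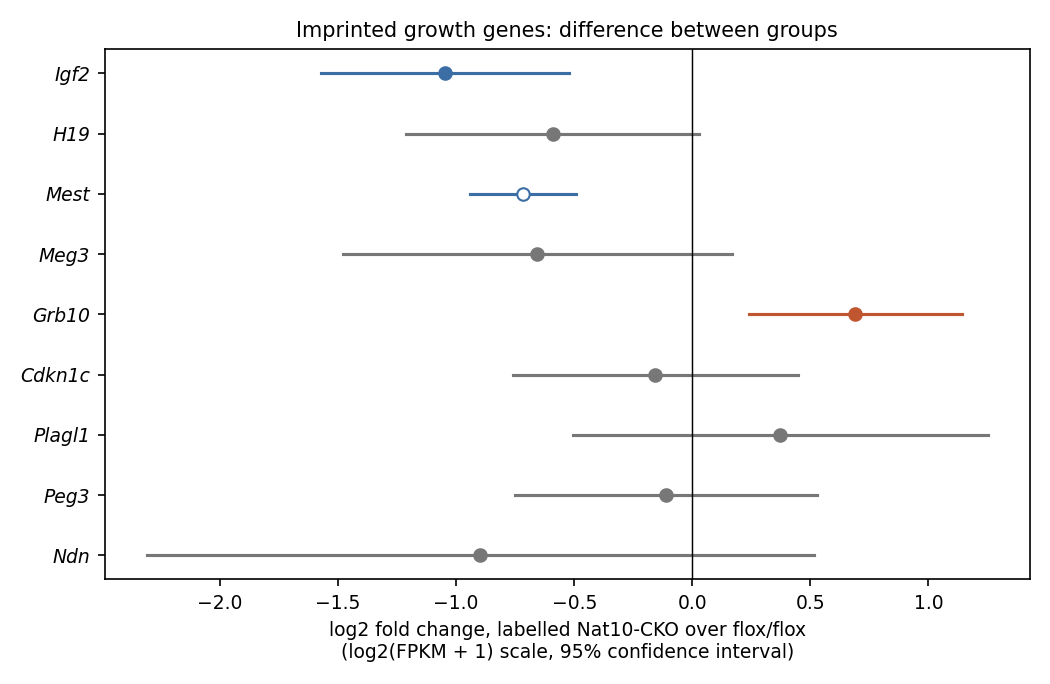
Log2 fold change of the CKO-labelled over the flox/flox libraries (horizontal axis, log2(FPKM + 1) scale) with its 95% confidence interval for the 8 tested imprinted genes, and for Mest (open point) from the fit with a filter of 20 reads. Blue marks genes called lower, orange higher and grey no call; the interval of Igf2 runs from -1.57 to -0.52 and that of Grb10 from 0.24 to 1.14.

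Among other genes of the IGF pathway, the receptor Igf1r and the RNA-binding protein Igf2bp2, which binds Igf2 transcripts, were higher. Of 26 genes on the IGF list, Igf2 and Grb10 included, 18 were tested, 5 were called higher and 3 lower, counts near the background of 24.4% and 16.0%. The median log2 fold change was 0.40, beside 0.03 for all tested genes. With 1 library left out the counts ran from 3 higher (without flox/flox replicate 1 or 2) to 7, and from 2 to 3 lower. With protein-coding genes rescaled, 8 were higher and 3 lower. Igf1r rose from 2.04 ± 0.198 to 5.54 ± 0.347 FPKM (SD, n = 3 per group, adjusted p = 0.000554). Igf2bp2 rose from 1.51, 1.51 and 1.27 FPKM to 8.27, 10.7 and 9.55 FPKM, 6.66-fold (adjusted p = 0.000167). Its relatives Igf2bp1 and Igf2bp3 were below 1 FPKM in all libraries, and Igf2bp1 had 0.566 FPKM in CKO-labelled replicate 1 and at most 0.0632 FPKM elsewhere.

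The receptors and adaptors did not move as one. Igf2r, itself imprinted, encodes a receptor that clears IGF2, and it was at 22.0 ± 1.90 and 30.2 ± 7.44 FPKM (SD, n = 3 per group, limma adjusted p = 0.126, but 0.0130 without CKO-labelled replicate 1 and 0.0298 with protein-coding genes rescaled). Insr was at 16.4 ± 1.63 and 21.8 ± 3.52 FPKM (adjusted p = 0.0749, but 0.0189 with protein-coding genes rescaled). Irs2, a receptor substrate, rose from 3.32 ± 1.52 to 10.0 ± 4.08 FPKM (adjusted p = 0.0159), a call lost without flox/flox replicate 1 (0.0520) or 2 (0.0551), without both libraries that stand apart (0.0545) and with no filter (0.0505). Grb14, the unimprinted relative of Grb10, went the other way, from 54.0, 57.8 and 49.5 FPKM to 12.4, 25.7 and 32.3 FPKM. That 2.29-fold fall (adjusted p = 0.0207) was lost without any 1 of the flox/flox libraries (adjusted p 0.0529 to 0.0675) and with no filter (0.0598). Igf1, the other ligand, was at 2.10 ± 0.212 and 1.76 ± 0.414 FPKM (adjusted p = 0.375).

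The binding proteins, which hold IGFs in the tissue, split too. Igfbp5 fell from 15.5 ± 1.15 to 9.79 ± 0.236 FPKM (SD, n = 3 per group, adjusted p = 0.00317 by limma), and Igfbp6, which prefers IGF2, rose from 4.29 ± 0.592 to 10.1 ± 2.55 FPKM (0.00511). Igfbp3, Igfbp4 and Igfbp7 made no call, and Igfbp3 was at 18.4 FPKM in CKO-labelled replicate 1 and at 5.61 to 7.11 FPKM in the other 5 libraries.

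**Figure D3:**
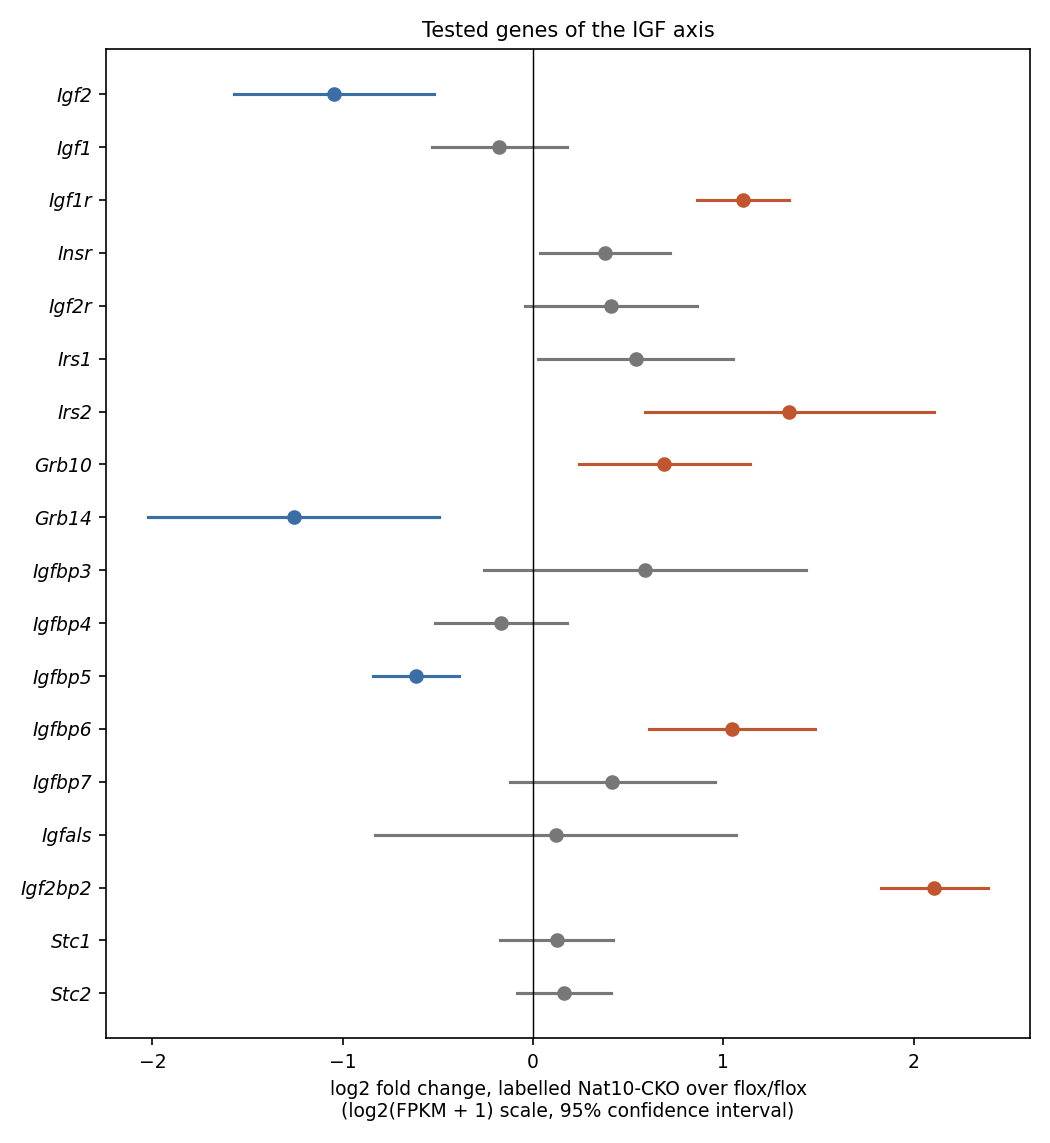
Log2 fold change (horizontal axis, log2(FPKM + 1) scale) with 95% confidence interval of the 18 tested genes of the IGF list, from ligands and receptors to binding proteins. Orange marks the 5 called higher, with Igf2bp2 farthest to the right, blue the 3 called lower, Igf2, Grb14 and Igfbp5, and grey the 10 with no call.

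Cdkn1c (gene ID 12577, chromosome 7, 143012076 to 143014802, minus strand), a maternally expressed inhibitor of cyclin-dependent kinases, spread widely in 1 group. Values were 9.03, 8.48 and 8.20 FPKM in the flox/flox group and 11.6, 5.0 and 7.38 FPKM in the CKO-labelled group. CKO-labelled replicate 1 was above all flox/flox libraries and the other two were below them. The log2 fold change was -0.16 (95% confidence interval -0.76 to 0.45, limma adjusted p = 0.648), and it was 0.10 without CKO-labelled replicate 2 and -0.43 without CKO-labelled replicate 1 (adjusted p 0.0727). With array weights the adjusted p was 0.0205, lower.

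Of the 4 other inhibitors tested, which are not imprinted, 1 was called higher and 2 lower, beside 24.4% and 16.0% of all tested genes. Cdkn1a rose from 14.4, 14.4 and 13.3 FPKM to 214, 152 and 153 FPKM (12.3-fold, limma adjusted p = 0.00011), while Cdkn1b fell from 18.2 ± 1.39 to 11.0 ± 1.49 FPKM (SD, n = 3 per group, 0.00621) and Cdkn2c from 8.66 ± 1.57 to 4.33 ± 1.20 FPKM (0.0127). Cdkn2d made no call, and Cdkn2a and Cdkn2b were under 1 FPKM on average.

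Dlk1 (gene ID 13386, chromosome 12, 109418411 to 109429262, plus strand), a membrane protein related to the NOTCH ligands, was hardly detected. It had 10, 12 and 6 reads in the flox/flox group and 3, 2 and 6 in the others, or 0.0344 to 0.0772 and 0.0117 to 0.0360 FPKM. Pooled and scaled, 11 reads against 28 give a ratio of 0.402, with a 95% interval of 0.180 to 0.832 that covers counting error only. The gene was not tested, and its groups overlapped.

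Meg3 (gene ID 17263, chromosome 12, 109506879 to 109538163, plus strand), the maternally expressed noncoding RNA of the same cluster, read 4.78, 1.29 and 1.66 FPKM in the flox/flox group and 0.892, 1.39 and 0.995 FPKM in the CKO-labelled group. Replicate 1 of the flox/flox group was 3.24 times the mean of the other two. The log2 fold change of -0.66 ± 0.35 (SE, limma adjusted p = 0.173) shrank to -0.25 without that library (0.245). Rian, a further maternal transcript of the cluster, showed the same single high library, with 10.8 FPKM there and 1.37 to 2.42 FPKM in the other 5. The log2 ratio of Dlk1 to Meg3 differed by -0.40 between groups (exact permutation p = 0.7), and its sign turned with a pseudocount or with 1 library left out.

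Of 13 tested NOTCH pathway genes 6 fell (5 by voom) and 0 rose, also at an unadjusted p under 0.05 and by voom, with a median log2 fold change of -0.30. Among all tested genes 16.0% were called lower and 24.4% higher. With the filter of 20 reads 5 of 14 fell and 1 rose, beside 15.3% and 19.5% of all genes. Hes1, a NOTCH target, fell from 13.8 ± 1.6 to 8.11 ± 0.680 FPKM (SD, n = 3 per group, limma adjusted p = 0.00427), and the ligand Jag2 from 13.1 ± 0.959 to 8.78 ± 1.18 FPKM (0.0143). The count of the 13 that fell was 2, 1 and 3 without flox/flox replicates 1, 2 and 3, 2 without CKO-labelled replicate 2, and 1 after protein-coding genes were rescaled to a common total. Hes1 kept its call in each of these, and Jag2 lost it without flox/flox replicate 2 and after rescaling. Dlk2, the paralogue of Dlk1 and named here after its values were seen, was under the filter and higher: it read 0.176, 0.106 and 0.0710 FPKM against 2.47, 1.77 and 1.19 FPKM, from 6 to 17 reads against 96 to 216, with an adjusted p of 0.00254 by limma under the filter of 20 reads, where 19.5% of genes were called higher. Dlk2 passed that filter through the CKO-labelled group alone, so its adjusted p adds no support beyond the values.

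Ndn (gene ID 17984, chromosome 7, 61998025 to 61999676, plus strand), a MAGE family protein best known from neurons, read 26.6, 3.88 and 6.34 FPKM in the flox/flox group and 5.07, 3.85 and 4.19 FPKM in the others. Replicate 1 of the flox/flox group was 5.2 times the mean of the other two. The log2 fold change was -0.90 (95% confidence interval -2.31 to 0.52, limma adjusted p = 0.266), and -0.16 without that library, where the means were 5.11 and 4.37 FPKM. A noncoding gene on the opposite strand, Gm32061, covers the whole Ndn span.

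That library was the one with the neural markers. Peripherin (Prph), an intermediate filament of peripheral neurons, read 117 FPKM there and at most 0.185 FPKM elsewhere, and Stmn2 73.5 FPKM and at most 1.72 FPKM. A pair of other imprinted genes, named after their values were seen, were also high there: Nnat at 9.86 FPKM (0.858 to 2.10 in the other 5) and Nap1l5 at 10.6 FPKM (0.0621 to 0.386). Igf2, H19, Grb10, Cdkn1c and Plagl1 in that library were at 0.831 to 1.08 times the mean of the other two of its group. By the same measure Peg3 was at 1.86, Mest at 1.24 and Dlk1, with 10 reads, at 0.897. The part of neural tissue in the Ndn, Meg3 and Peg3 values was not tested.

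**Figure D4:**
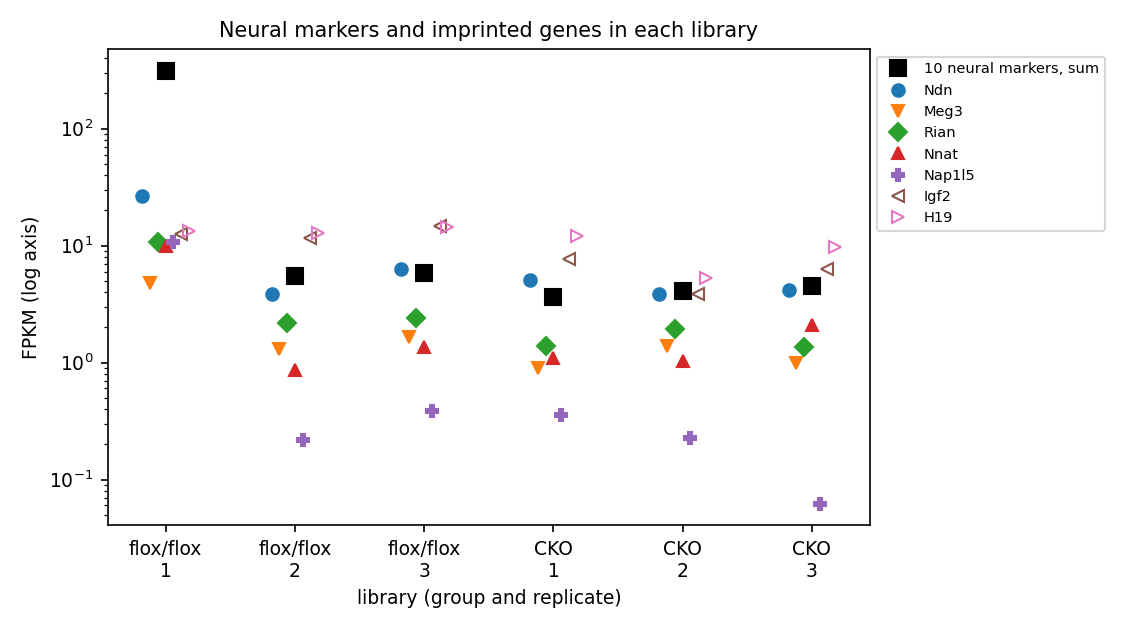
FPKM (vertical log axis) in each of the 6 libraries of the summed neuron and Schwann cell markers (black squares) and of 7 imprinted genes (coloured). Ndn, Meg3, Rian, Nnat and Nap1l5 (filled) were highest in flox/flox replicate 1, where the markers summed to 311 FPKM, while Igf2 and H19 (open) were not.

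Plagl1 (gene ID 22634, chromosome 10, 12966576 to 13007438, plus strand), a zinc finger factor that acts on other imprinted genes, read 2.14, 2.20 and 1.98 FPKM in the flox/flox group and 6.54, 1.65 and 2.25 FPKM in the CKO-labelled group. CKO-labelled replicate 1 was 3.35 times the mean of the other two. The log2 fold change of 0.37 ± 0.37 (SE, limma adjusted p = 0.450) became -0.08 without it. Its relative Plagl2 was at 2.89 ± 0.573 and 2.36 ± 0.380 FPKM (SD, n = 3 per group, adjusted p = 0.311).

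Peg3 (gene ID 18616, chromosome 7, 6706891 to 6733443, minus strand), a paternally expressed zinc finger gene, was highest in replicate 1 of both groups. It read 2.51, 1.43 and 1.26 FPKM in the flox/flox group and 2.52, 1.12 and 1.05 FPKM in the others. The log2 fold change was -0.11 ± 0.27 (SE, limma adjusted p = 0.763), and 0.08 without flox/flox replicate 1.

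**Figure D5:**
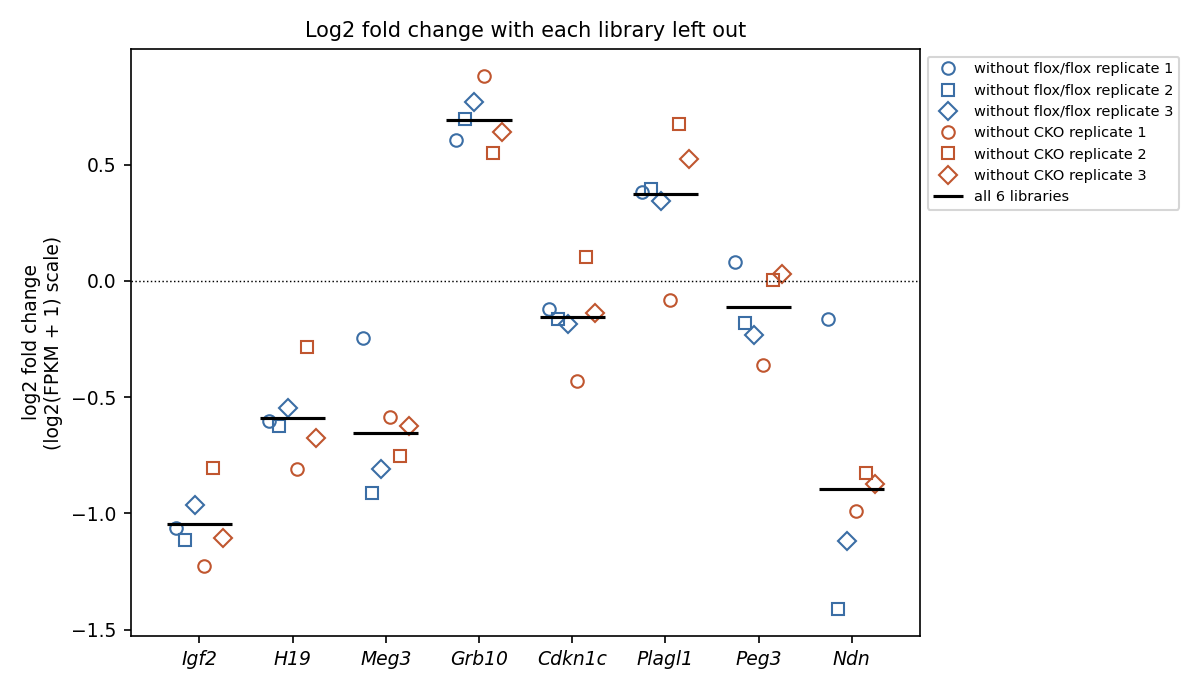
Log2 fold change (vertical axis, log2(FPKM + 1) scale) of the 8 tested imprinted genes with all 6 libraries (black line) and with each library left out (blue symbols, a flox/flox library; orange, a CKO-labelled one). Igf2 stayed between -1.23 and -0.81, Plagl1 moved from 0.37 to -0.08 without CKO-labelled replicate 1, and Ndn from -0.90 to -0.16 without flox/flox replicate 1.

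Some of the genes that flank the 10 in their clusters were called, in both directions. Of 14 tested neighbours 5 were higher and 2 lower, beside 24.4% and 16.0% of all tested genes, so the counts are not a result about these neighbours (1 lower without flox/flox replicate 2 and 4 without CKO-labelled replicate 1), with a median log2 fold change of 0.01. On chromosome 7, between Igf2 and Cdkn1c, Tssc4 rose from 3.93 ± 0.175 to 12.4 ± 4.77 FPKM (SD, n = 3 per group, limma adjusted p = 0.00481), while the tetraspanin Cd81 made no call (0.439). Cobl, an actin nucleator beside Grb10, rose from 1.44 ± 0.475 to 4.13 ± 0.484 FPKM (0.00294), and Ltv1, a ribosome assembly factor beside Plagl1, from 6.93 ± 0.463 to 18.0 ± 2.35 FPKM (0.000621). Ube3a, a ubiquitin ligase of the cluster that holds Ndn, rose from 4.62 ± 0.528 to 7.93 ± 1.15 FPKM (0.00778).

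Imprinted genes outside the 10 and their clusters split evenly in the main test. Of 18 tested, 4 were higher and 4 lower, near the background of 24.4% and 16.0%, but the lower count was 0 or 1 with any 1 library left out. The split was 7 higher and 1 lower with protein-coding genes rescaled, and 3 higher and 6 lower with mitochondrially encoded genes left out. The amino acid transporter Slc38a4 rose from 2.48, 3.06 and 3.41 FPKM to 7.08, 12.7 and 8.73 FPKM (limma adjusted p = 0.00285), and Ampd3, an AMP deaminase, from 8.77 ± 0.919 to 23.2 ± 5.64 FPKM (SD, n = 3 per group, 0.00196). Slc22a3, an organic cation transporter beside Igf2r that was under the filter and is named after its values were seen, had 174, 131 and 159 reads in the flox/flox group and 10, 7 and 3 in the others, 23.0-fold lower in mean FPKM (limma adjusted p = 0.000384 under the filter of 20 reads, where 15.3% of genes were called lower). Slc22a3 passed that filter through the flox/flox group alone, so its adjusted p adds no support beyond the values.

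Several genes that decline in growing organs without being imprinted were lower. With no filter on level, 6 of the 20 on that list fell and 1, Igf2bp2, rose, with a median log2 fold change of -0.18, beside 6.63% of all genes called lower. With the filter of 20 reads 9 of 18 fell and 1 rose (median -0.39), beside 15.3% called lower. Of these 9, Mybl2 passed that filter through the flox/flox group alone, with 28, 19 and 7 reads in the CKO-labelled libraries. The filter of 1 FPKM left 11, of which 7 fell (5 to 8 with 1 library left out), beside 16.0% of all tested genes called lower. But that filter selects members that are lower: Mycn, Top2a and Mki67 passed it through the flox/flox group alone. The adjusted p of these genes, given below, therefore add no support beyond the values. Among the 5 genes at 5 FPKM or more the median was 0.58. Mycn, a growth-promoting transcription factor, fell from 3.41 ± 0.968 to 0.530 ± 0.106 FPKM (SD, n = 3 per group, limma adjusted p = 0.00141). The division genes Top2a, from 4.26 ± 1.14 to 0.588 ± 0.299 FPKM (0.00142), and Mki67, from 2.54 ± 0.417 to 0.541 ± 0.226 FPKM (0.00206), fell with it.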

How the data were processed

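Messenger RNA selected on poly-T beads from hearts of 10-day-old mice was made into directional (dUTP) libraries and read in 150 bp pairs on a NovaSeq X Plus, per the labels' protocols. Per the series' design text, the authors aligned reads to GRCm39 with HISAT2 2.2.1 and counted them with featureCounts 2.0.6; CASAVA and DESeq2 1.42.0 are named, without a role, in the submitters' processing notes. What the authors deposited is a table of FPKM per gene and library, with gene lengths. The sources used here state neither the strand setting nor the definition of length. FPKM times length came in whole reads for 100% of values (tolerance 0.01), and those reads gave the depths. In every library the scaling of the FPKM matched the median-of-ratios size factor of those reads, not their total.

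The comparison used limma 3.58.1 (R 4.3.3; lmFit, then eBayes with its trend option, two-sided) on log2(FPKM + 1), for genes averaging 1 FPKM or more, with Benjamini-Hochberg adjustment over all of them and a threshold of 0.05. Every adjusted p is from limma, except those of ratios between genes, which are from exact permutation tests adjusted over the 4 ratios. Folds are ratios of mean FPKM. The test was also run on simulated reads, with the same dispersion for every gene and few changed genes. That setting differs from these data, so the run does not bear on the calls given here. The 10 genes, the lists and the named genes (all of the 10, cluster neighbours, IGF and cell-cycle inhibitor genes, otherwise the called genes of smallest adjusted p) were chosen with earlier results of these data known. Alternatives changed the pseudocount (0.1, 0.5), filter (none, 5 FPKM), scaling, trend, weights, voom, replicate block and library set; the filter of 20 reads was added after the data were seen. Replicates are stated to be independent, with no batch named. Figures used matplotlib 3.10.9 in Python 3.11.15.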

Additional observations from a re-analysis of the deposited data

How the results depend on the processing

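Igf2 was called lower under every alternative run except the filter of 20 reads without flox/flox replicate 3 (adjusted p 0.0539). The members called lower numbered 2 with no filter and under the filter of 20 reads (also with voom or a pseudocount of 0.1), where Mest joined, 3 with array weights, where H19 and Cdkn1c joined (adjusted p 0.00311 and 0.0205), and 1 to 2 with single libraries left out. Members called higher by limma were 0 with no filter and after quantile normalization (Grb10 at unadjusted p 0.0117 and 0.0361, and called by voom), and 0 to 1 with single libraries left out. The lower genes overall numbered 1924, but 1159 with a filter of 5 FPKM, 3007 with array weights, and 1207 to 1924 with single libraries left out (1207 and 1212 without flox/flox replicates 2 and 3); higher genes ran from 2126 to 3123. Plagl1 turned to -0.15 with array weights, -0.0729 without both libraries that stand apart and -0.0807 to 0.67 with single libraries left out. The latter gave -0.36 to 0.0829 for Peg3 and -0.43 to 0.10 for Cdkn1c, and the Dlk1 to Meg3 difference became 0.62 and 0.71 with pseudocounts of 0.1 and 0.5, and -0.98 to 0.28 with single libraries left out (above 0 without flox/flox replicate 2 or CKO-labelled replicate 2). The cause was not tested. Higher calls made up 60.4% of calls, 48.7% without the mitochondrially encoded genes (16.6 to 18.3% of reads in Nat10 flox/flox, 7.56 to 9.26% in the others) and 72.2% with protein-coding genes rescaled, which moved the median log2 fold change from 0.03 to 0.16. Same-numbered libraries had deviations that correlated at 0.0649, 0.0373 and 0.105, beside -0.116 to 0.0722 for libraries of different number. With 3 libraries per group these values cannot settle whether the numbers mark pairs. A replicate block gave 2666 higher and 1724 lower genes and changed no call among the 10 (limma adjusted p 0.0119 for Igf2 and 0.0195 for Grb10). Of 310 alternative values 11 turned sign. Dlk1, with 28 and 11 reads per group, is limited by depth.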

Other observations

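Genes that write, read or erase DNA methylation, through which imprints are kept, were called in both directions. Of 10 tested, beside 16.0% of all genes called lower, 4 fell (2 with protein-coding genes rescaled) and 1, Trim28, was called higher, and 3 to 4 fell and 0 to 1 was higher with 1 library left out. Uhrf1, which brings the maintenance methylase to newly copied DNA, fell from 1.79, 2.85 and 4.13 FPKM to 0.678, 0.465 and 0.388 FPKM (limma adjusted p = 0.00505). It passed the filter through the flox/flox group alone, so its adjusted p adds no support beyond the values. The demethylases Tet2, from 2.89 ± 0.229 to 1.64 ± 0.140 FPKM (SD, n = 3 per group, 0.00763), and Tet3, from 4.31 ± 0.334 to 2.88 ± 0.0286 FPKM (0.0103, but 0.0586 with protein-coding genes rescaled), fell as well. Trim28, a corepressor that protects imprints, was at 28.5 ± 1.14 and 36.3 ± 1.17 FPKM (0.0285), a call that with 1 library left out held only without Nat10-CKO replicate 1. It was also lost with mitochondrially encoded genes left out (0.104), with a replicate block (0.0608), after quantile normalization (0.466) and without both libraries that stand apart (0.0581). Dnmt1, the maintenance methylase, was at 7.08 ± 1.71 and 5.27 ± 1.29 FPKM (0.188). The insulator protein Ctcf, which separates Igf2 from its enhancers on the maternal copy, was at 2.72 ± 0.111 and 2.92 ± 0.435 FPKM (0.646).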
